A study of Homo sapiens with 12 samples.

Results

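GATA6, HNF4A, FOXA1, FOXA2, PDX1, SOX9, KLF5 and TP63, transcription factors that set the endodermal, ductal or squamous identity of pancreatic epithelium, were followed across 2 pancreatic cancer cell lines and their gemcitabine (GEM)-resistant derivatives. The 8 genes were taken by name from a table of 58302 genes, and each name matched a single gene. Total RNA was sequenced from BxPC-3 and CFPAC-1, established lines of human pancreatic ductal adenocarcinoma that were relatively sensitive to GEM, and from BxPC-3-GR and CFPAC-1-GR, made from them by long exposure to rising GEM concentrations. The final GEM concentration was higher for BxPC-3-GR than for CFPAC-1-GR, so in a comparison of their changes line and dose cannot be told apart. Each of the 4 lines gave 3 libraries, 12 in all. Nothing states that the 3 libraries of a line came from separate cultures, so the p-values measure the spread between libraries, which may be technical. No group received another agent or carried a stated genetic change. Each GR line was a single selection from its parent, so a difference between a GR line and its parental line cannot be told apart from drift of that selection, and in bulk RNA fewer cells of a type cannot be told apart from less RNA per cell. The sample records name 1 culture medium for all lines, whereas the study's methods name a different one for the CFPAC-1 lines, and the records describe BxPC-3-GR as mesenchymal and the other 3 lines as epithelial in morphology.

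Lineage factors act by opening and reading the enhancers that define a cell type. FOXA1 and FOXA2 are forkhead pioneer factors, GATA6 and HNF4A maintain endodermal and classical pancreatic cancer programs, PDX1 specifies the pancreas and later the beta cell, SOX9 marks ductal and progenitor cells, and KLF5 supports epithelial proliferation in ductal tumors. TP63 encodes p63, the master regulator of basal and squamous epithelium, whose expression in pancreatic cancer goes with the basal-like or squamous subtype.

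The RefSeq promoter table (GRCh38.p14) held 7 starts of 5 members (TP63, GATA6 and FOXA1 with 1 each, KLF5 and HNF4A with 2 each), and FOXA2, PDX1 and SOX9 had none. The bases before the starts of GATA6 and FOXA1, which as deposited were higher in BxPC-3-GR but lower in CFPAC-1-GR than in the parental line, of KLF5, which as deposited rose in both, and of TP63, which split the lines, are shown 5′ to 3′ up to the RefSeq start or the first exon base annotated by GENCODE 29, whichever came first, with capitals marking a GC box (GGGCGG on either strand) or a TATA box (TATAAA on either strand). GATA6 and FOXA1 were on opposite sides of 0 in CFPAC-1-GR after the correction for GC content and gene length described with the results.
GATA6 (chr18:22169339-22169442, plus strand): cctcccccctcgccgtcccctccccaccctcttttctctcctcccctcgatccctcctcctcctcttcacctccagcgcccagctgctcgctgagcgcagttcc
FOXA1 (chr14:37595349-37595499, minus strand): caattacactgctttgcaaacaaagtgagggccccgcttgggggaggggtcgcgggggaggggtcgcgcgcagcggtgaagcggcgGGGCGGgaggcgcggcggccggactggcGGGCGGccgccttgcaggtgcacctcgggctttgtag
KLF5 (chr13:73054726-73054975, plus strand): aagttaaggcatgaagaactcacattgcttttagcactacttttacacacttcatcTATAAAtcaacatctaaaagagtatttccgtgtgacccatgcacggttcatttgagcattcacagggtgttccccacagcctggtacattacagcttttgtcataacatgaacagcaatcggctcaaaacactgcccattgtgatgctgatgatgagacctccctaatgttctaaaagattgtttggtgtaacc
TP63 (chr3:189631139-189631388, plus strand): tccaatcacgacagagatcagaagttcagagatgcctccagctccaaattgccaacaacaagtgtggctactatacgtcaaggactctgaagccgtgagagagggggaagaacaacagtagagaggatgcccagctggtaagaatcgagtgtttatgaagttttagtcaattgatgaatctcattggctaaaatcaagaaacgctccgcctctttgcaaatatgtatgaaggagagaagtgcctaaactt

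In the 250 bases before each start, searched on both strands, the FOXA1 promoter held 2 GC boxes, a motif present in 42.6% of 35116 promoters of the same length. The upstream KLF5 start held 1 TATA box, present in 10.7% of promoters, and its downstream start held 2 GC boxes. GATA6 and TP63 held neither of these, nor the forkhead letters TGTTTAC (2.98% of promoters), the GATA letters AGATAA (9.17%) or the HNF4 letters CAAAGTCCA (0.325%). Of the 2 HNF4A starts, the upstream one held 1 GC box and 1 AGATAA, and the downstream one held 1 GC box. No 2 matches overlapped. These window matches describe letters and not binding. The single TP63 start held lies at the upstream end of the gene, so no internal TP63 start was shown or searched. Which start the TP63 RNA of the BxPC-3 lines came from was not tested. The windows differed in base content, with 67.2% G and C for FOXA1 and 64.4% for GATA6 against 44.0% for TP63 and 40.8% for the upstream KLF5 start.

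Expression was given by the authors as FPKM, fragments scaled by gene length and by library size, a level per length that can be compared between genes. Steps between low values implied 12600000 to 25200000 mapped fragments per library. The libraries of each line were close to each other, with Spearman correlations of 0.965 to 0.981 across genes. The parental CFPAC-1 libraries stood apart in base content. Across genes, the log2 fold change (log2FC) of CFPAC-1-GR against CFPAC-1 correlated with the GC content of the gene's longest transcript at Spearman's rho = -0.777, and that of BxPC-3 against CFPAC-1 at -0.628, whereas the values were 0.0388 for BxPC-3-GR against BxPC-3 and 0.0189 for BxPC-3-GR against CFPAC-1-GR. The 8 members ranged in GC content from 42.5% (TP63) and 47.0% (KLF5) through 51.0% (SOX9), 51.3% (FOXA1), 52.8% (HNF4A), 55.3% (GATA6) and 58.2% (FOXA2) to 59.9% (PDX1), so counts and log2FC values that rest on the parental CFPAC-1 libraries are given as deposited and after a correction for GC content and gene length, except those of HNF4A and TP63 under a lowered FPKM minimum, for which no corrected fit was made. FPKM levels are as deposited throughout. Markers of other cells were low. PTPRC was at 0 in all libraries, INS and GCG were at 0 in all libraries, and the summed FPKM of 18 acinar genes did not exceed 9.06 and that of 15 endocrine genes 0.455 in any library. Genes of the fibroblast and stellate list summed to at most 6.70 FPKM. The 12 immune genes summed to 38.7 to 48.6 FPKM in CFPAC-1, 15.2 to 18.3 in CFPAC-1-GR and at most 4.49 in the BxPC-3 lines, and only CD68, LYZ and CD14 reached a mean of 1 FPKM in any line. The ductal keratin KRT19 was highest in CFPAC-1, at 1573 ± 87.7 FPKM (SD, n = 3). It was at 470 ± 23.0 in BxPC-3 and 483.1 ± 17.75 in BxPC-3-GR, which overlapped. Its log2FC in BxPC-3 against CFPAC-1 was -1.74, and -0.58 after the correction. In BxPC-3-GR, described as mesenchymal, 12 of 12 epithelial markers had a mean of at least 1 FPKM. Of 12 mesenchymal markers, 5 were tested there, and 2 were SDE (adjusted p below 0.05 and absolute log2FC above 1) and higher and 1 SDE and lower, against 4.14% and 3.62% of all genes. S100A4 rose from 2.35 ± 0.343 to 18.1 ± 0.785 FPKM (log2FC 2.51, adjusted p = 6.6e-06) and the cadherin gene CDH2 rose too (log2FC 1.10, adjusted p = 0.00068), whereas the intermediate filament gene VIM fell from 6.59 ± 0.937 to 0.813 ± 0.111 (log2FC -2.06, adjusted p = 2.9e-05).

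**Figure D1:**
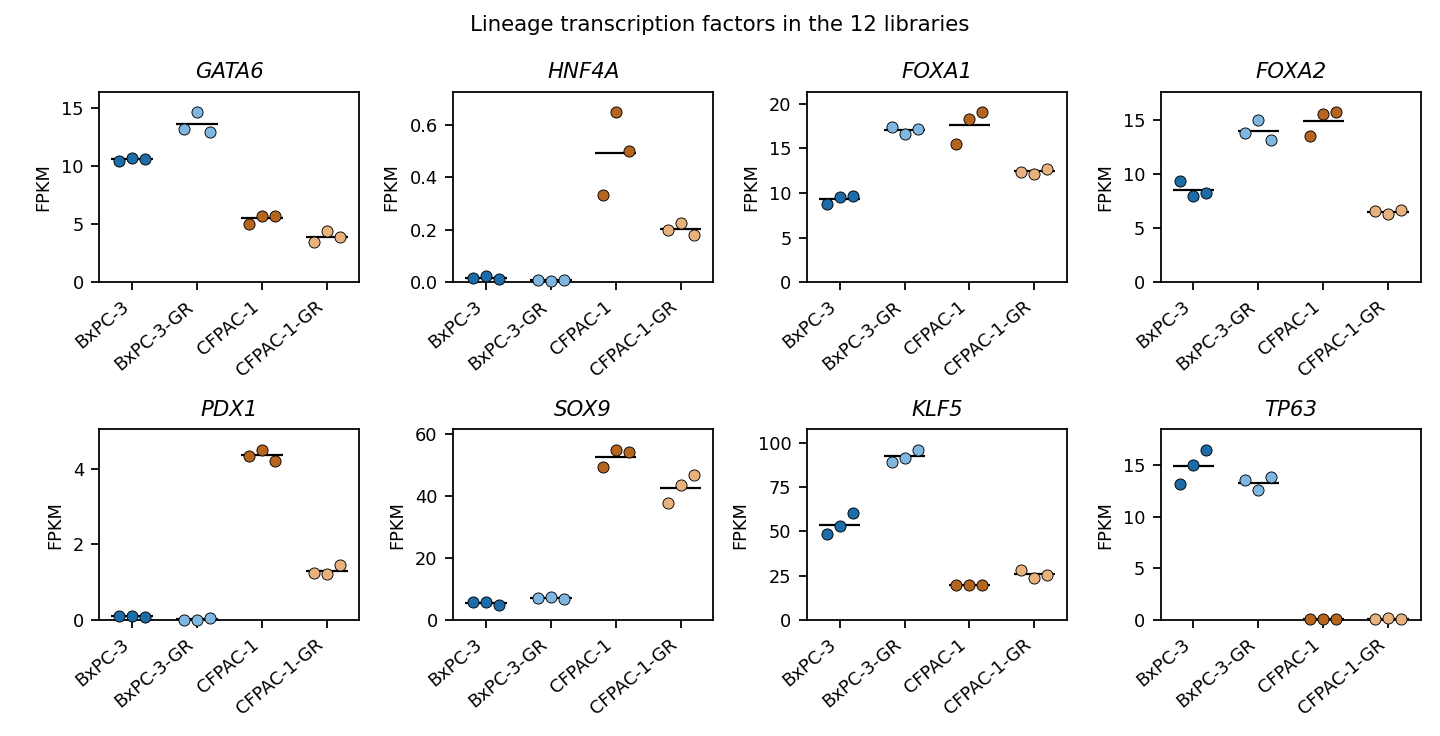
FPKM of the 8 lineage factors (vertical axes, linear from 0 and scaled for each gene) in the 3 libraries of each line, with each library as a point and the mean as a bar. TP63 lay between 12.6 and 16.5 in the BxPC-3 lines and did not exceed 0.164 in the CFPAC-1 lines, whereas PDX1 and HNF4A showed the opposite order and FOXA1 and FOXA2 crossed between the parental and GR lines.

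GATA6 (chr18:22169443-22202528, plus strand, GRCh38), a zinc finger factor of endoderm, was measured at 10.5, 10.7 and 10.6 FPKM in BxPC-3 and at 13.2, 14.6 and 13.0 in BxPC-3-GR. It was lower in the CFPAC-1 lines, with 5.06, 5.74 and 5.71 in CFPAC-1 and 3.45, 4.46 and 3.93 in CFPAC-1-GR. The order was BxPC-3-GR, BxPC-3, CFPAC-1 and CFPAC-1-GR, and no neighbours in it overlapped. GATA6 shares 240 exon bases with GATA6-AS1 and 321 with AC091588.3 on the opposite strand, 6.08% and 8.14% of its exons, and since no source used here says whether strand was counted, these reads cannot be told apart.

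FOXA1 (chr14:37589984-37596059, minus strand) stood at 8.76, 9.52 and 9.64 FPKM in BxPC-3 and at 17.3, 16.6 and 17.2 in BxPC-3-GR, whereas CFPAC-1 had 15.4, 18.3 and 19.0 and CFPAC-1-GR 12.4, 12.2 and 12.7. The levels of BxPC-3-GR and CFPAC-1 overlapped, and the other neighbours in the order did not. FOXA2 (chr20:22581005-22585455, minus strand), its close relative, stood at 9.39, 7.97 and 8.24 FPKM in BxPC-3 and at 13.8, 14.9 and 13.1 in BxPC-3-GR, whereas CFPAC-1 had 13.5, 15.5 and 15.7 and CFPAC-1-GR 6.60, 6.27 and 6.69. Here too CFPAC-1 and BxPC-3-GR overlapped at the top, but CFPAC-1-GR was lowest for FOXA2 and BxPC-3 was lowest for FOXA1. FOXA1 and FOXA2 shared no stretch of 50 bases, so reads of such length were not split between them.

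PDX1 (chr13:27920020-27926231, plus strand) was at 4.34, 4.50 and 4.21 FPKM in CFPAC-1 and at 1.25, 1.21 and 1.44 in CFPAC-1-GR. In BxPC-3 it was at 0.115, 0.102 and 0.0702 FPKM, equal to 5, 5 and 3 fragments, and in BxPC-3-GR at 0, 0 and 0.0483, equal to 0, 0 and 3 fragments. A count of 0 allows up to 0.0476 and 0.0561 FPKM in these 2 libraries (3 fragments, counting error only). The 3 BxPC-3 values lay above these limits and above the third BxPC-3-GR value, and in the fit with no filter on low FPKM the log2FC was -0.11 (adjusted p = 0.057). HNF4A (chr20:44355700-44434596, plus strand), a nuclear receptor of hepatic and gastrointestinal epithelium, did not reach 1 FPKM in any library. It was at 0.331, 0.648 and 0.501 FPKM in CFPAC-1 and 0.200, 0.227 and 0.181 in CFPAC-1-GR, and the 6 libraries of the BxPC-3 lines lay between 0.00620 and 0.0239, which is 1.0 to 3.4 implied fragments. The table gives 1 value per gene, so transcripts from the upstream and the downstream HNF4A start were not separated.

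SOX9 (chr17:72121020-72126420, plus strand), a ductal and progenitor factor, was at 5.72, 5.73 and 4.91 FPKM in BxPC-3 and at 7.23, 7.31 and 6.62 in BxPC-3-GR. Its values were 49.2, 54.9 and 54.0 in CFPAC-1 and 37.8, 43.4 and 46.7 in CFPAC-1-GR. Every CFPAC-1 and CFPAC-1-GR library exceeded every library of the BxPC-3 lines, and no neighbouring groups overlapped. KLF5 (chr13:73054976-73077542, plus strand), a Krüppel-like factor of proliferating epithelium, had the highest FPKM of the 8 genes in the BxPC-3 lines, with 48.5, 52.9 and 60.3 in BxPC-3 and 89.4, 91.7 and 96.2 in BxPC-3-GR. It was at 19.7, 19.9 and 19.9 FPKM in CFPAC-1 and 28.1, 23.9 and 25.6 in CFPAC-1-GR, again without overlap between neighbours. Such separation was common in these data. Among all genes tested the groups did not overlap for 66.1% in BxPC-3-GR against BxPC-3, 82.1% in CFPAC-1-GR against CFPAC-1, 85.6% between the parental lines and 71% between the GR lines.

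TP63 (chr3:189631416-189897279, plus strand) was at 13.2, 15.0 and 16.5 FPKM in BxPC-3 and 13.6, 12.6 and 13.8 in BxPC-3-GR, which overlapped. It was at 0.0827, 0.0764 and 0.0564 FPKM in CFPAC-1 and 0.107, 0.164 and 0.119 in CFPAC-1-GR, or 5.4 to 21.1 implied fragments per library. The isoforms with and without the transactivation domain come from separate starts of the gene and share most exons, and the gene-level FPKM did not separate them.

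The comparison of each GR line with its parental line asks what changed along with resistance. In BxPC-3-GR, FOXA1, KLF5, FOXA2, GATA6 and SOX9 rose and TP63 did not pass the test. The 5 that rose were 5 of the 6 members tested, where 57.7% of all 11710 genes tested had an adjusted p below 0.05 and 26.2% had one and were higher. Against a mean of 9.31 ± 0.481 FPKM (SD, n = 3) in BxPC-3, FOXA1 reached 17.0 ± 0.399 in BxPC-3-GR, a 1.83-fold level (log2FC 0.81, SE 0.0553, adjusted p = 8.3e-05). KLF5 rose from 53.9 ± 5.96 to 92.4 ± 3.46 FPKM, 1.72-fold (log2FC 0.77, SE 0.0875, adjusted p = 0.00057). FOXA2 rose from 8.53 ± 0.753 to 13.9 ± 0.937 FPKM, 1.64-fold (log2FC 0.65, SE 0.0794, adjusted p = 0.00077). The changes of GATA6 (1.28-fold, log2FC 0.33, adjusted p = 0.0041) and SOX9 (1.29-fold, log2FC 0.32, adjusted p = 0.010) were smaller. All 5 were higher in 3 of 3 BxPC-3-GR libraries than in any BxPC-3 library. None of the 6 was significantly differentially expressed (SDE), against 7.76% of all genes. TP63 had a log2FC of -0.15 with a 95% confidence interval from -0.36 to 0.07 (adjusted p = 0.20), so an increase of more than 0.07 on the log2 scale lay outside the interval. The correction for GC content and length moved the log2FC of GATA6 to 0.35, of SOX9 to 0.35 and of TP63 to -0.16, and changed no call.

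Against parental CFPAC-1, the values of CFPAC-1-GR as deposited gave lower PDX1, FOXA2, FOXA1, GATA6 and SOX9 and higher KLF5. PDX1 fell from 4.35 ± 0.146 to 1.30 ± 0.122 FPKM (SD, n = 3), 3.35-fold lower (log2FC -1.22, SE 0.0690, adjusted p = 8.9e-06), and FOXA2 from 14.9 ± 1.23 to 6.52 ± 0.221, 2.29-fold lower (log2FC -1.08, SE 0.0791, adjusted p = 2.1e-05). These 2 of 6 tested members were SDE genes, where 32.2% of 12051 genes were SDE and 11.7% were SDE and lower. Over all genes 2473 were SDE and higher and 1407 lower, and 1685 and 2338 with median-of-ratios scaling. FOXA1 fell by 0.47 (adjusted p = 0.0024), GATA6 by 0.40 (adjusted p = 0.0069) and SOX9 by 0.30 (adjusted p = 0.023) on the log2 scale, and KLF5 rose by 0.37 (adjusted p = 0.0036). All 6 passed at an adjusted p below 0.05, as did 79.6% of all genes, 44.6% higher and 34.9% lower. SOX9 lost its call without CFPAC-1 replicate 2 (adjusted p = 0.072), without CFPAC-1 replicate 3 (adjusted p = 0.066) or without CFPAC-1-GR replicate 1 (adjusted p = 0.053), and with a pseudocount and a minimum of 0.1 FPKM (adjusted p = 0.061).

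These changes followed the base content of the genes. Among all genes tested, the median log2FC in CFPAC-1-GR ran from 1.25 for genes under 40% GC to -0.89 for genes of 60% and more. Genes of 55% to 60% GC, where PDX1, FOXA2 and GATA6 lie, had a median of -0.58 and quartiles of -0.94 and -0.24, so GATA6 lay within the quartiles and FOXA2 and PDX1 below them. FOXA2 (58.2% GC) and PDX1 (59.9%) are in the upper part of this class. Their log2FC values lay within the quartiles of -1.28 and -0.53 of the class of 60% and more. KLF5 lay near the median of 0.34 of its class of 45% to 50% GC. SOX9 and FOXA1 lay within the quartiles of -0.57 and 0.19 of theirs. After the correction, PDX1 was at a log2FC of -0.22 (adjusted p = 0.035), FOXA2 at -0.18 (adjusted p = 0.14), FOXA1 at -0.21 (adjusted p = 0.087), SOX9 at -0.07 (adjusted p = 0.52) and KLF5 at 0.21 (adjusted p = 0.059), and GATA6 changed sign to 0.19 (adjusted p = 0.092). No member was then SDE, against 9.43% of all genes, and PDX1 alone of the 6 kept an adjusted p below 0.05, against 62.1%. KLF5 was also at 0.06 (adjusted p = 0.51) with median-of-ratios scaling, which shifted the median log2FC of all genes by -0.266. Whether the trend with GC content arose in the cells or in the libraries was not tested.

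**Figure D2:**
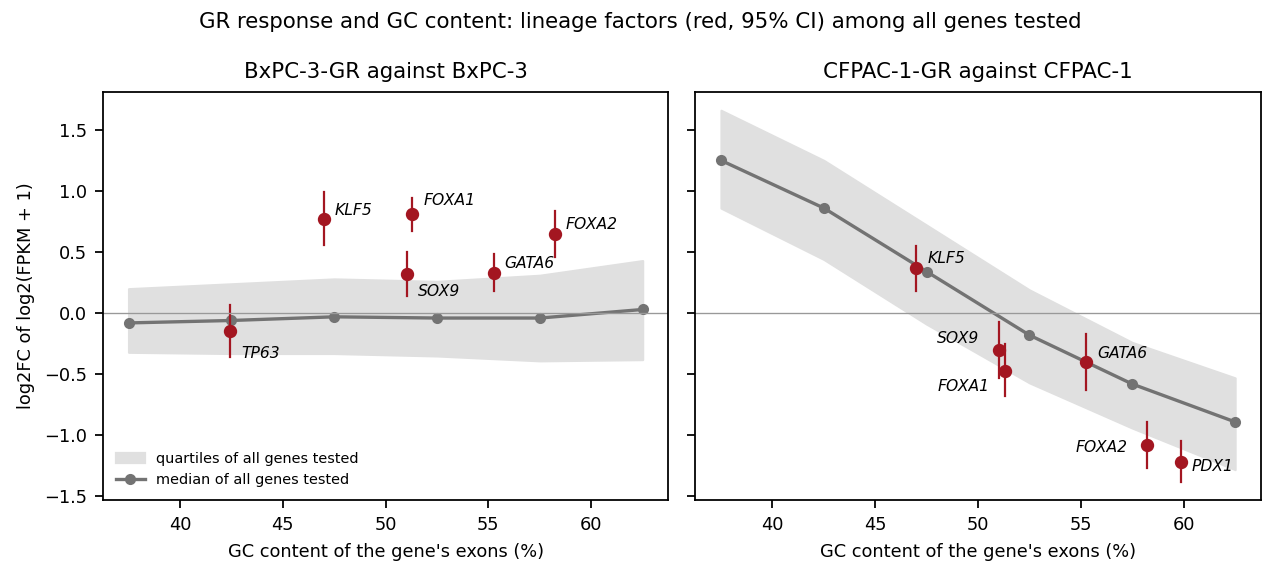
log2FC of each GR line against its parental line (vertical axis, on log2(FPKM + 1)) against the GC content of the gene's longest transcript (horizontal axis, percent, labelled as that of the gene's exons). Grey points and band give the median and quartiles of all genes tested in 6 classes of GC content, the outer 2 classes (under 40%, and 60% and more) being drawn at the ends, and red points with 95% confidence intervals give the lineage factors tested. KLF5, FOXA1, FOXA2, GATA6 and SOX9 lie above the flat band or at its upper edge in BxPC-3-GR, and the 6 factors follow the falling band in CFPAC-1-GR.

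HNF4A and TP63 were under the minimum mean of 1 FPKM in the CFPAC-1 comparison. With the minimum lowered to 0.1 FPKM, HNF4A had a log2FC of -0.31 (adjusted p = 0.022), from a mean of 0.493 ± 0.159 to 0.203 ± 0.0231 FPKM, and TP63 had one of 0.08 (adjusted p = 0.28), from 0.0719 ± 0.0138 to 0.130 ± 0.0303 FPKM. On the scale with a pseudocount of 0.1, which compresses low values less, HNF4A was at -0.94 (adjusted p = 0.011) and TP63 at 0.42 (adjusted p = 0.036). Both passed the adjusted p there, as did 13230 of 21003 genes. The median log2FC of all genes in that fit was 0.377, close to the value of TP63, and no corrected fit was made. The 3 CFPAC-1-GR libraries were below all CFPAC-1 libraries for HNF4A and above all of them for TP63. Such separation was seen for 82.1% of the genes tested at the minimum of 1 FPKM, a set without HNF4A and TP63. TP63 had only 5.4 to 21.1 implied fragments per library of these lines.

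Between the parental lines, TP63 and KLF5 were higher in BxPC-3, and SOX9 and PDX1 were higher in CFPAC-1. These 4 of 7 members tested were SDE genes, against 44.5% of 11842 genes. TP63 averaged 14.9 ± 1.65 FPKM (SD, n = 3) in BxPC-3 and 0.0719 ± 0.0138 in CFPAC-1 (log2FC 3.89, SE 0.0839, adjusted p = 1.5e-07). SOX9 was 9.67-fold lower in BxPC-3, with 5.45 ± 0.469 against 52.7 ± 3.07 FPKM (log2FC -3.06, SE 0.0779, adjusted p = 2.3e-07). The log2FC was -2.29 for PDX1 (adjusted p = 1.6e-07) and 1.39 for KLF5 (adjusted p = 7.1e-06), whose level in BxPC-3 was 2.72-fold that in CFPAC-1. After the correction 5 were SDE, against 27% of all genes, with 2.94 for TP63, -2.73 for SOX9, -1.22 for PDX1, 1.29 for KLF5 and 1.51 for GATA6. The remaining 3 passed the adjusted p only, as deposited. GATA6 was higher in BxPC-3 (log2FC 0.84, adjusted p = 1.8e-05), FOXA1 was lower (log2FC -0.85, adjusted p = 0.00011, and -0.50 after it), and FOXA2 was lower as deposited (log2FC -0.74, adjusted p = 0.00020) but at 0.24 (adjusted p = 0.048) after it. All 7 passed the adjusted p as deposited, against 84.2% of all genes. HNF4A, untested at 1 FPKM, had a log2FC of -0.55 (adjusted p = 0.0012) with the minimum of 0.1 FPKM, and with a pseudocount of 0.1 as well it was SDE at -2.31 (adjusted p = 0.0002). In that last fit 10503 of 20411 genes were SDE, and HNF4A had 1.5 to 3.4 implied fragments per BxPC-3 library. Because the correction acts on log2(FPKM + 1), it also shifts genes near 0, such as TP63 in CFPAC-1 and PDX1 in BxPC-3.

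The GR lines, whose comparison carried no such trend with GC content, differed by more than 1 on the log2 scale in TP63, KLF5, GATA6 and SOX9. TP63 (log2FC 3.66, SE 0.0639, adjusted p = 1.2e-07), KLF5 (1.80, SE 0.0774, adjusted p = 3.3e-06) and GATA6 (1.57, SE 0.0941, adjusted p = 1.5e-05) were higher in BxPC-3-GR, and SOX9 (-2.43, SE 0.0917, adjusted p = 1.8e-06) was higher in CFPAC-1-GR. In FPKM, GATA6 stood at 13.6 ± 0.906 against 3.95 ± 0.506, 3.45-fold, and KLF5 at 92.4 ± 3.46 against 25.9 ± 2.11, 3.57-fold. These 4 of 6 members tested were SDE, against 17.1% of 12330 genes. FOXA2 was 2.14-fold higher in BxPC-3-GR (log2FC 0.99, adjusted p = 3e-05), just under the SDE threshold and at 1.04 after the correction, when 5 members were SDE against 16.9% of all genes, and FOXA1 1.37-fold higher (log2FC 0.43, adjusted p = 0.00061). All 6 passed the adjusted p, against 65.3% of all genes. PDX1, at 1.30 ± 0.122 FPKM in CFPAC-1-GR and 3 fragments in 1 of 3 BxPC-3-GR libraries, entered the test with the minimum of 0.1 FPKM (log2FC -1.18, adjusted p = 2e-05), as did HNF4A (log2FC -0.25, adjusted p = 0.0058). With a pseudocount of 0.1 as well both were SDE, at -3.61 for PDX1 and -1.48 for HNF4A, as were 6128 of 21543 genes.

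**Figure D3:**
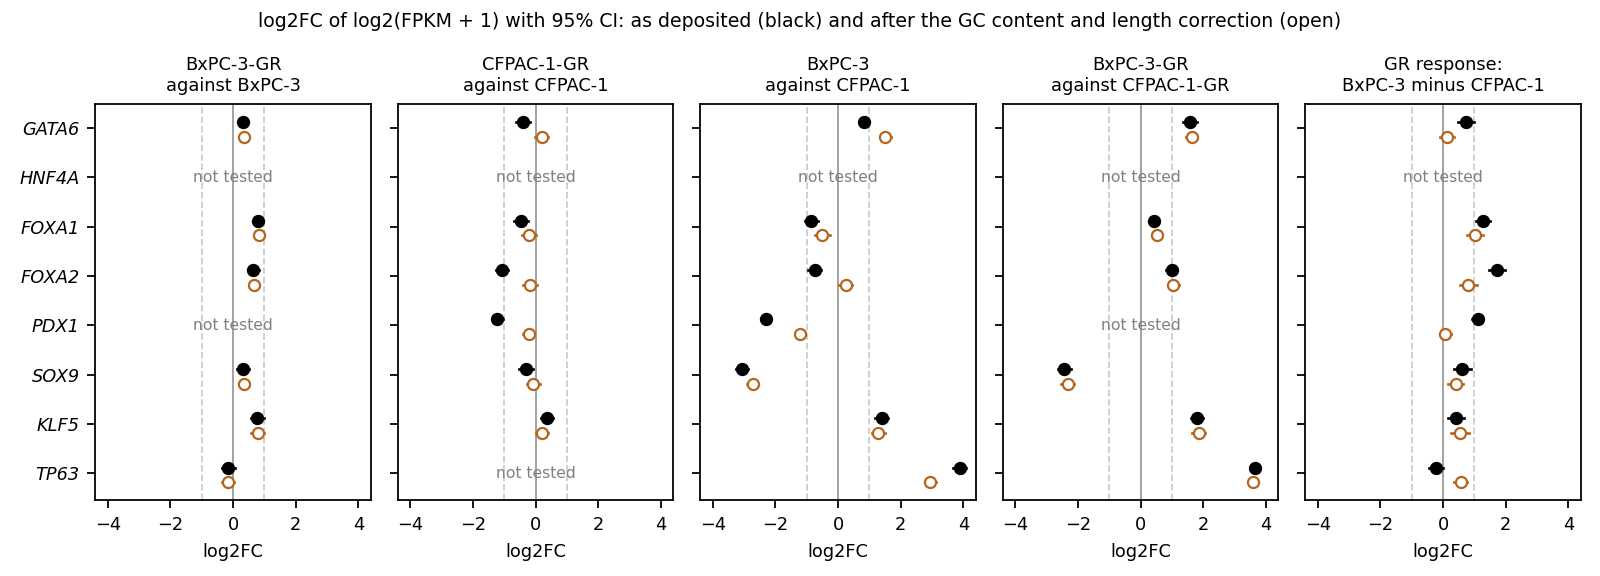
log2FC of the lineage factors (horizontal axis, difference of log2(FPKM + 1), dashed lines at -1 and 1) in the 4 comparisons and for the difference of the GR response between the lines, with 95% confidence intervals. Black points are the values as deposited and open points those after the correction. The 2 values are close in the comparisons without the parental CFPAC-1 libraries and move apart in the other 3, as for FOXA2, at -1.08 and -0.18 in CFPAC-1-GR against CFPAC-1.

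Whether the response differed between the lines was tested as an interaction over all 12 libraries. As deposited, the change in the BxPC-3 lines exceeded that in the CFPAC-1 lines for FOXA2 by 1.73 (SE 0.111, adjusted p = 1.4e-07), for FOXA1 by 1.27 (SE 0.104, adjusted p = 8e-07), for PDX1 by 1.11 (SE 0.0762, adjusted p = 2.2e-07), for GATA6 by 0.73 (adjusted p = 0.00013), for SOX9 by 0.62 (adjusted p = 0.00074) and for KLF5 by 0.41 (adjusted p = 0.0078) on the log2 scale. For TP63 the difference was -0.22 (adjusted p = 0.071). Of 7 members tested, 6 passed the adjusted p and all 6 were positive, where 76.6% of 12210 genes passed and 31.6% passed and were positive. FOXA2, FOXA1 and PDX1 were SDE, all in the positive direction, against 38% of all genes and 14.4% SDE and positive. After the correction, FOXA1 was SDE at 1.03 (adjusted p = 1.7e-05), against 19.6% of all genes, and FOXA2 stood at 0.81 (adjusted p = 0.00013), KLF5 at 0.54 (adjusted p = 0.0029) and SOX9 at 0.40 (adjusted p = 0.0088). GATA6 at 0.12 (adjusted p = 0.31) and PDX1 at 0.07 (adjusted p = 0.47) no longer passed. TP63 changed sign to 0.56 (adjusted p = 0.00049), so that 5 of 7 passed, against 64.4% of all genes. TP63 did not exceed 0.164 FPKM in any CFPAC-1 or CFPAC-1-GR library, and the correction also shifts genes near 0. Its corrected sign and call therefore cannot be read as a difference of response. PDX1 had at most 5 fragments in any BxPC-3 library, and its log2FC in the BxPC-3 lines was -0.11 in the fit with no filter on low FPKM. On this scale PDX1 had almost no room to fall there, so a positive difference as deposited was fixed by its fall in CFPAC-1-GR. By the ratio of means PDX1 was 5.95-fold lower in BxPC-3-GR and 3.35-fold lower in CFPAC-1-GR, the opposite order, though from few fragments in the BxPC-3 lines.

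Other transcription factors of the same lineages were read from 2 lists. Of 29 endodermal and pancreatic factors, 6 were tested in BxPC-3-GR, of which 1 was SDE and higher and 1 SDE and lower, against 4.14% and 3.62% of all genes, with a median log2FC of 0.08 beside -0.05 for all genes. ELF3, an epithelial ETS factor, rose from 3.96 ± 0.219 to 24.9 ± 2.88 FPKM (log2FC 2.38, adjusted p = 1.1e-05), and ISL1, a LIM homeodomain factor of islets, fell from 2.37 ± 0.301 to 0.220 ± 0.0525 FPKM (log2FC -1.46, adjusted p = 3.6e-05). In CFPAC-1-GR, 14 were tested and 1 was SDE and higher and 4 SDE and lower, against 20.5% and 11.7% of all genes, with a median of -0.47 beside 0.13 for all genes. After the correction 3 were SDE and higher and none lower, against 9.43% of all genes in either direction, and the median was -0.04. Those lower included FOXA3 (log2FC -1.39, and -0.32 after the correction), MNX1 (-1.08, and -0.02) and CDX2, the intestinal homeobox factor (-1.01, and -0.35). EHF, an ETS factor of differentiated epithelium, rose from 7.92 ± 0.201 to 50.0 ± 15.9 FPKM in CFPAC-1-GR (log2FC 2.46, adjusted p = 6.8e-05, and 1.76 after the correction). FOXA3 was listed at 0 in all 6 libraries of the BxPC-3 lines and had a mean of 7.99 FPKM in CFPAC-1. Between the parental lines, 9 of 13 factors tested were SDE and lower in BxPC-3 than in CFPAC-1 and 1 SDE and higher, against 19.8% and 24.7% of all genes, and 5 and 2 after the correction, against 27% in either direction.

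Of 28 squamous and basal factors, 18 were tested in BxPC-3-GR, where 2 were SDE and higher and 1 SDE and lower, against 4.14% and 3.62% of all genes. SOX2, which cooperates with p63 in squamous epithelium, rose from 7.90 ± 0.247 to 74.4 ± 3.85 FPKM (log2FC 3.08, adjusted p = 1.3e-06), and the related SOX21 from 1.28 ± 0.0403 to 11.0 ± 0.884 FPKM (log2FC 2.40, adjusted p = 3.5e-06). SOX2 was also at 34.5 ± 1.44 FPKM in CFPAC-1 and 31.4 ± 3.91 in CFPAC-1-GR, where TP63 was near 0. It was SDE and lower in BxPC-3 than in CFPAC-1 (log2FC -1.99, and -1.58 after the correction). ZBED2 fell from 17.1 ± 0.853 to 3.58 ± 0.129 FPKM (log2FC -1.98, adjusted p = 4e-06). In CFPAC-1-GR, ZBED2 rose from 1.31 ± 0.130 to 5.59 ± 0.287 FPKM (log2FC 1.51, adjusted p = 6.6e-06, and 1.65 after the correction). There 23 were tested, 6 were SDE and higher and 1 was SDE and lower, against 20.5% and 11.7% of all genes, with a median log2FC of 0.24 beside 0.13 for all genes. After the correction 6 were higher and none lower, against 9.43% in either direction. PITX1, a homeobox factor, was the lower one (log2FC -1.78, and -0.68 after the correction). EHF is in both lists. Between the parental lines, 8 of 19 were SDE and higher in BxPC-3 and 3 SDE and lower, against 24.7% and 19.8% of all genes, and 7 and 3 after the correction, against 27% in either direction. Among them were SNAI2 at 41.2 ± 1.93 against 2.67 ± 0.246 FPKM (log2FC 3.52, and 2.75 after the correction) and BARX2 at 2.16 ± 0.176 against 17.3 ± 1.34 (log2FC -2.53, and -2.05).

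Genes that the lineage factors are known to control were described the same way. Of 30 targets of p63, 21 of 28 tested were SDE and higher in BxPC-3 than in CFPAC-1 and 4 SDE and lower, against 24.7% and 19.8% of all genes, with a median log2FC of 1.75 beside 0.10 for all genes. After the correction 21 were higher and 2 lower, against 27% in either direction. Between the GR lines, 18 of 26 were SDE and higher in BxPC-3-GR and none lower, against 6.8% and 10.3% of all genes. KRT5, the basal keratin that pairs with KRT14, was at 350 ± 11.5 FPKM in BxPC-3 and 4.46 ± 1.28 in CFPAC-1, with 49.8 ± 3.61 in BxPC-3-GR. While TP63 overlapped between BxPC-3 and BxPC-3-GR, 5 of 28 targets were SDE and lower in BxPC-3-GR, against 3.62% of all genes, and 1 was SDE and higher, against 4.14%. KRT5 (log2FC -2.79, adjusted p = 2.7e-06), KRT6A (-2.04, adjusted p = 1e-05) and KRT14 (-1.40, adjusted p = 1.6e-05) were lower, with KRT6B (-1.08) and S100A2 (-1.03). Reads of KRT6A, KRT6B and KRT14 can be shared with near-identical keratin genes or pseudogenes, so their values are uncertain. In CFPAC-1-GR, 2 of 21 targets were SDE and higher and 7 lower, against 20.5% and 11.7% of all genes, and 2 and 2 after the correction, against 9.43% in either direction.

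Of 32 targets of HNF4A, few reached the minimum of 1 FPKM. Only 1 was tested in the BxPC-3 lines and 3 in the CFPAC-1 lines. Of these 3, 1 was SDE and lower as deposited, against 11.7% of all genes, and none was SDE after the correction, against 9.43%. Between the parental lines 4 were tested, of which 3 were SDE and lower in BxPC-3 and 1 SDE and higher, against 19.8% and 24.7% of all genes. After the correction 2 were lower and 1 higher, against 27% in either direction. SERPINA1, which encodes alpha-1-antitrypsin, was at 0.0326 ± 0.0169 FPKM in BxPC-3 and 13.7 ± 1.37 in CFPAC-1 (log2FC -3.82, and -3.32 after the correction), with the fibrinogen chain FGB listed at 0 in BxPC-3 and at 13.0 ± 0.337 in CFPAC-1. FGB and SERPINA1 were at 13.4 ± 2.08 and 12.8 ± 1.94 FPKM in CFPAC-1-GR, where HNF4A was 0.203 ± 0.0231. UGT1A1, whose exons are shared with other UGT1A genes so that its value is uncertain, was higher in BxPC-3 (log2FC 2.26, adjusted p = 0.0042, and 1.96 after the correction).

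Subtype genes of pancreatic cancer showed mixed directions within the BxPC-3 lines. Of 24 classical genes, 7 were tested in BxPC-3-GR and 3 were SDE and higher and 3 SDE and lower, against 4.14% and 3.62% of all genes. AGR2, a disulfide isomerase of mucous cells, rose from 23.9 ± 2.04 to 103 ± 14.7 FPKM (log2FC 2.05, adjusted p = 4.6e-05), and ST6GALNAC1, a mucin sialyltransferase, rose too (log2FC 1.81), whereas ANXA10 (log2FC -2.82) and CEACAM6 (log2FC -2.75) fell. Of 26 measured genes for 25 basal-like names, 21 were tested and 3 were SDE and higher and 5 SDE and lower, beside the same shares of all genes. LY6D (log2FC 4.12) and the noncoding RNA UCA1 (3.28) rose, and the cornified envelope gene SPRR1B fell from 330.1 ± 17.6 to 8.18 ± 1.25 FPKM (log2FC -5.18). In CFPAC-1-GR none of 9 classical genes was SDE and higher and 4 were SDE and lower, against 20.5% and 11.7% of all genes, and 5 were lower after the correction, against 9.43% in either direction. Among them were LYZ (log2FC -1.81, and -2.40 after it), ST6GALNAC1 (-1.56, and -1.16) and ANXA10 (-1.07, and -1.72).

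Of 16 ductal markers, 7 of 10 tested were SDE and lower in BxPC-3 than in CFPAC-1 and none higher, against 19.8% and 24.7% of all genes, and 6 were lower after the correction, against 27% in either direction. KRT8 (log2FC -2.98, and -2.45 after the correction), KRT18 (-2.46, and -1.69) and MUC1 (-2.63, and -1.58) were among them. Between the GR lines 5 of 9 were SDE and lower in BxPC-3-GR, against 10.3% of all genes. In BxPC-3-GR against BxPC-3, 8 were tested and 1 was SDE and higher and 1 SDE and lower, against 4.14% and 3.62% of all genes. MUC1 rose from 0.353 ± 0.0269 to 4.01 ± 0.440 FPKM (log2FC 1.88, adjusted p = 1.3e-05), and TFF1 fell from 2.63 ± 1.63 to 0.682 ± 0.448 (log2FC -1.05, adjusted p = 0.036).

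RNAs that lie beside or antisense to the members were near 0. Of 8 names, 4 were in the table and none reached the minimum of 1 FPKM. GATA6-AS1 averaged 0.243 ± 0.142 FPKM in BxPC-3, 0.471 ± 0.106 in BxPC-3-GR, 0.0776 ± 0.00401 in CFPAC-1 and 0.0519 ± 0.00942 in CFPAC-1-GR, the same order of lines as GATA6, with which it shares exon bases. LINC00261, the neighbour of FOXA2, did not exceed a mean of 0.308 FPKM in any line, SOX9-AS1 did not exceed 0.0909, and HNF4A-AS1 was listed at 0 throughout.

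Among 12209 other genes whose 12 libraries averaged 1 FPKM or more, the profiles nearest to each of the 7 members that reached the same average over the 12 libraries were found by the root mean square distance between log2(FPKM + 1) values centred on their own mean. For FOXA1 these were BCORL1 (0.066), ZFP41 (0.092) and GTF2IRD1 (0.093), and for FOXA2 they were DOCK6 (0.079), SAMD1 (0.099) and MINK1 (0.109). GATA6 was nearest to IRAK2 (0.102), SSH1 (0.103) and CYSRT1 (0.109), and PDX1 to RGS14 (0.070), MYRF (0.099) and KRT18P29 (0.106). SOX9 was nearest to SLC17A9 (0.126), CD40 (0.131) and SERPINA5 (0.148), and KLF5 to KIAA1324L (0.121), SALL4 (0.134) and CBLB (0.158). The nearest to TP63 were NID2 (0.171), the desmosomal cadherin DSG3 (0.185) and SOX7 (0.245). HNF4A did not reach it and was left out. None of the 3 nearest genes of these 7 was another member. With 4 lines of 3 libraries each, these distances rest on 4 group levels and describe likeness of pattern only.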

How the data were processed

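Both parental lines and both GR derivatives were each sequenced in 3 libraries. FPKM values, fragments scaled to gene length and to library size, were deposited by the authors for 58302 genes in a single table. Per the labels, the submitters' processing notes name Trimmomatic 0.27, FastQC 0.10.1 and TopHat2 2.0.8 and both hg19 and GRCh38, and the loci in the table are those of GRCh38. The counting program and its use of strand are not given in the sources used here. The study tested counts, which an FPKM table does not hold. Here log2(FPKM + 1) was fitted with limma 3.58.1 (lmFit, eBayes, R 4.3.3) for all genes that averaged 1 FPKM or more over the libraries of the fit, with Benjamini-Hochberg adjustment over all genes tested and the study's SDE criteria. This scale understates the changes of low genes. With 3 libraries against 3, an exact permutation test of 1 gene cannot go below p = 0.10, so the adjusted p-values rest on the pooled variance.

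Depth was inferred from the steps between low values of genes with 1 transcript, of which 99.6% to 99.8% were whole multiples within 0.05 of a fragment. Members, gene lists and tests were chosen with earlier results of these data known. Every column of values was used. GC content, that of the longest transcript, and joined exon length came from GENCODE 29, which held 58039 of the genes. The correction removed a spline with 5 degrees of freedom on each from the log2 values. Named genes were all members and, for each list and comparison, up to 4 SDE genes with the largest absolute log2FC among those without overlap of the groups, the factors of the first 2 lists where a whole list is given, and the 3 nearest profiles. CDX2 and the upper or lower genes of small counts were named to complete them. Alternatives were a pseudocount of 0.1, no filter or a minimum of 0.1 FPKM, the replicate number as a block, the correction, scaling by upper quartiles or by median-of-ratios, protein-coding genes only, a variance with a mean trend, all 12 libraries in 1 fit and each library left out. The procedure was tested on simulated data. Python 3.11.15, pandas 2.3.3, numpy 2.4.6 and matplotlib 3.10.9 were used. Proteins and quantitative PCR were not analysed here. Some genes counted in the lists are not reported here by name.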

Additional observations from a re-analysis of the deposited data

Results flagged for a closer look

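As deposited, the change from the parental to the GR line differed between the lines for 6 of the 7 members tested. The test was an interaction term in limma over 12 libraries. Of all 12210 genes tested, 76.6% passed the same test, and 31.6% passed it and were positive. The lines also differed in their final GEM concentration and each GR line was a single selection, so line, dose and drift cannot be told apart. The difference of log2FC, BxPC-3 lines minus CFPAC-1 lines, was 1.73 for FOXA2, 1.27 for FOXA1, 1.11 for PDX1, 0.73 for GATA6, 0.62 for SOX9 and 0.41 for KLF5. As deposited, FOXA1, FOXA2, GATA6 and SOX9 were higher in BxPC-3-GR but lower in CFPAC-1-GR than in the parental line, and KLF5 was higher in both. After the correction for GC content and gene length the values were 0.81, 1.03, 0.07, 0.12, 0.40 and 0.54 in the same order, and those of PDX1 and GATA6 no longer passed. Of all genes, 64.4% passed then. PDX1 had at most 5 fragments in any library of the BxPC-3 lines. It had almost no room to fall there on this scale, so its positive difference as deposited was fixed by its fall in CFPAC-1-GR. The difference across all genes correlated with GC content at Spearman's rho = 0.696, and the part of this trend in the 6 results was not tested beyond the correction.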

How the results depend on the processing

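The GC content and length correction took the SDE members from 2 to 0 in CFPAC-1-GR against CFPAC-1 and from 3 to 1 (FOXA1) in the difference of the GR response, alone and with the replicate block. It reversed GATA6 in CFPAC-1-GR (0.19), FOXA2 between the parental lines (0.24) and TP63 in the difference of response (0.56), again alone and with the block. TP63 was near 0 in the CFPAC-1 lines, where the correction shifts values too, so its reversal cannot be read as a response. With a pseudocount of 0.1 and a minimum mean of 0.1 FPKM the SDE members between the GR lines went from 4 to 7 with PDX1, HNF4A and FOXA2 added, 2 of them being tested only under the lower minimum. Over all genes tested, the SDE genes rose as well, from 2111 of 12330 to 6128 of 21543. With a library left out, the SDE members were 0 to 0 in BxPC-3-GR, 2 to 2 in CFPAC-1-GR, 4 to 4 between the parental lines, 4 to 5 between the GR lines and 3 to 3 in the difference of response. Without BxPC-3 replicate 1, TP63 passed in the difference of response (-0.30, adjusted p = 0.010), as it did with a pseudocount of 0.1 (-0.57, adjusted p = 0.0076) and with that and the minimum of 0.1 FPKM (-0.57, adjusted p = 0.014). Same-numbered libraries did not deviate together (correlations -0.143 to 0.0959), so the numbers gave no sign of a pairing. The check cannot exclude that same-numbered libraries were handled together. The replicate block alone gave 0, 2, 4, 4 and 3 SDE members and changed no call at an adjusted p below 0.05. With the block and the correction together, PDX1 lost its call in CFPAC-1-GR (adjusted p = 0.083), and FOXA2 did not pass between the parental lines (adjusted p = 0.098). Median-of-ratios scaling moved the median log2FC of all genes by -0.266 in CFPAC-1-GR, -0.159 between the parental lines, 0.151 between the GR lines and 0.278 in the difference of response, and turned the split of SDE genes, higher and lower, from 2924 and 2350 to 2576 and 2810 between the parental lines, from 838 and 1273 to 1100 and 981 between the GR lines and from 1758 and 2885 to 2600 and 2029 in the difference. It reversed no member. Of 611 alternative values of single members, 583 kept their direction and their SDE call, 12 became SDE, 10 lost it and 6 reversed. Depth limits PDX1 and HNF4A in the BxPC-3 lines and TP63 in the CFPAC-1 lines, at 0 to 21.1 implied fragments per library.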
